A study of Homo sapiens with 5 samples.

Results

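The genes described here encode chromatin remodellers, histone modifying enzymes and the proteins that read histone marks. They were chosen by name, as every gene in the analysed table whose symbol begins with SMARCA to SMARCE, ARID1 to ARID5, KMT2, KMT5, SETD, KDM1 to KDM8, HDAC, BRD, KAT2 to KAT8 or SIRT1 to SIRT7, or is one of CHD1 to CHD9 or ING1 to ING5. The names found 78 genes, read by 92 probes, of 9268 named genes and 14747 probes in all. RefSeq lists 111 protein-coding genes with such names, and those without a probe among the values, ARID1B, KMT2D, KDM6B and others, were not analysed here. Of the 78, BRD7P3 is a pseudogene of BRD7, and BRD3OS, a gene named for lying opposite BRD3, fits the naming rule and is counted in the BRD class without being a known reader of histone marks.

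The samples are LX-2 cultures, an immortal human line of hepatic stellate origin, the cell type that deposits scar matrix when the liver becomes fibrotic. Every culture received 50 pmol of biotin-labelled miR-25-3p duplex by transfection, and lysis followed after 24 hours. The PD miR-25 group (pull-down, 3 arrays) held the RNA that streptavidin beads retained from the lysate, and the Control group (lysate, 2 arrays) held RNA of the whole cell lysate, taken from transfected cells before the capture, although the extraction text of the labels describes beads for both groups. The samples include no capture with another duplex or with beads alone, so binding to miR-25-3p and other binding to the beads cannot be told apart. All samples come from 1 cell line. The study profiled 3 replicates per group, described as independent, and left out 1 control sample for low probe signal. Which lysate belongs to which capture is not given, and the p-values measure the spread between these 5 arrays. With 3 arrays against 2, an exact permutation test of a single gene cannot go below 0.1, so each test comes from limma fitted across all probes.

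Chromatin proteins act in large assemblies. SWI/SNF and CHD remodellers use ATP to move nucleosomes, acetyltransferases (KAT) and methyltransferases (KMT, SETD) place marks on histone tails, deacetylases (HDAC, SIRT) and demethylases (KDM) remove them, and bromodomain (BRD) and PHD finger (ING) proteins bind them. In stellate cells such enzymes are known to take part in the change to a matrix-producing state. A miRNA finds its mRNAs mainly through its seed, bases 2 to 8 from the 5′ end, which pairs with a complementary site in the mRNA. The bait is printed because every comparison here is a capture with it, and the seed is in capitals. The mature form in RefSeq, 22 bases long, lies at chr7:100093571-100093592 on the minus strand of GRCh38.p14, and the guide strand that the study transfected begins with it.
hsa-miR-25-3p: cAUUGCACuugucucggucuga

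The arrays did not stand equally close together. Across all probes, pull-down replicate 1 correlated with pull-down replicates 2 and 3 at 0.9632 and 0.9625, against 0.9854 between those 2. Over the 78 genes the values were 0.935, 0.941 and 0.982, and the lysate arrays correlated at 0.980. Replicate 1 lay farthest from the median of the 3 pull-down arrays for 38 of the 78 genes (48.7%) and for 50.2% of all named genes. Of 15 stellate cell markers 13 were analysed and 0 were called by limma (0 at an unadjusted p under 0.05). Their log2 fold changes had a median of -0.23, with 8 of 13 below 0, and ran from -1.64 for COL1A1 (SE 0.83, adjusted p = 0.24) and -1.03 for SPARC (SE 0.61, adjusted p = 0.311) to 0.18 for VIM and 0.22 for ACTA2. The summed log2-scale value of these 13 markers was 129 to 141 on the pull-down arrays and 138 to 142 on the lysate arrays. Of the 6 hepatocyte, macrophage, endothelial and cholangiocyte markers analysed, 0 were called. Their log2 fold changes ran from -0.62 for the macrophage gene CD68 to 0.31 for the hepatocyte gene ALB, and a second probe of CD68 gave -1.17 (unadjusted p = 0.015 and adjusted p = 0.0745, both from limma).

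Limma called 7 of the 78 chromatin genes, and with 3 arrays against 2 a gene not called may still differ. Of 78 genes, 2 were higher and 5 lower in the pull-down at an adjusted p under 0.05, which is 8.97%, where limma called 13.8% of all named genes (7.1% higher and 6.72% lower). The histone acetyltransferase gene KAT6A, the bromodomain gene BRD7 with its pseudogene BRD7P3, the demethylase gene KDM2A and the SWI/SNF subunit gene SMARCD1 were lower, and the SET domain genes SETD9 and SETD3 were higher. Each log2 fold change is the pull-down mean minus the lysate mean, and sample titles define the groups. ADAM17 and FKBP14, which the study selected as captured, were lower on the arrays titled pull-down (limma log2 values -0.65 and -2.03, adjusted p = 0.0343 and 0.0268). The -0.65 of ADAM17 is short of a 2-fold change, and the study added this gene separately as a potential target. The study's text describes its selected genes as enriched in the pull-down by at least 2-fold. The caption of its volcano plot gives a negative threshold instead, so the direction is not settled. If the titles of the groups were exchanged, every higher and lower given here would turn. Of the called genes, those with at least a 2-fold change were KAT6A, BRD7P3 and BRD7, lower, and SETD9, higher, that is 3 and 1 of 78, beside 3.02% and 2.41% of all named genes (5.43% in both directions). The authors normalized the arrays to near-equal distributions (array medians 9.01 to 9.03), so higher and lower are relative to the other probes. The comparison sets captured RNA against lysate RNA and measures no level per cell.

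**Figure D1:**
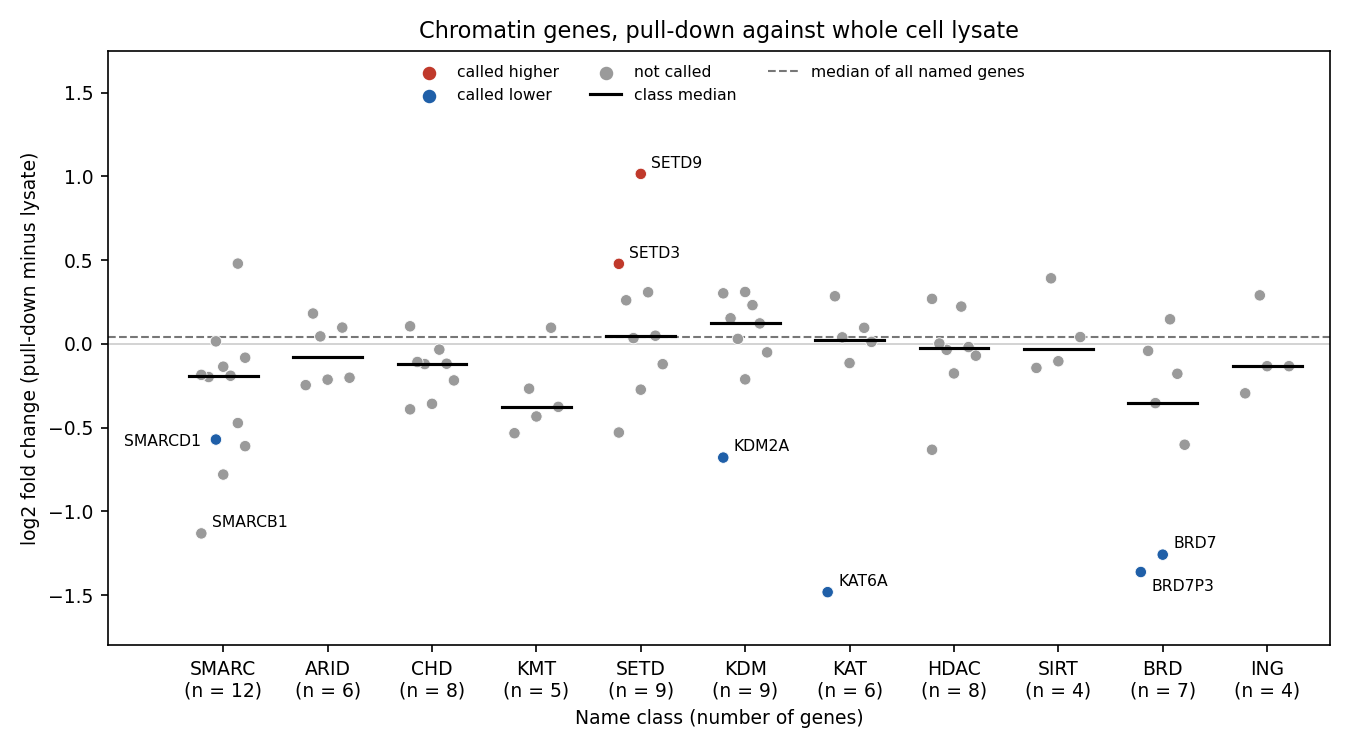
Log2 fold change of each of the 78 genes (pull-down minus lysate, y axis) by name class (x axis), each gene by its brightest probe; black bars are class medians and the dashed line is the median of all named genes at 0.04. Blue and red points are the 5 genes lower and the 2 higher at a limma adjusted p under 0.05, and most of the others lie between -0.5 and 0.5.

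The values of the 78 genes lay close to 0, as did those of most named genes. The median log2 fold change was -0.11, with quartiles of -0.27 and 0.10, beside 0.04 with -0.23 to 0.28 over all named genes. The log2 fold change was below 0 for 48 of 78 genes (61.5%) and for 45.3% of all named genes. For 65 of the 78 it was under 0.5 in size, and for 6942 of the 9268 named genes. The arrays of the groups did not overlap for 33 genes (42.3%), 12 higher and 21 lower, and for 49.2% of all named genes (27.8% higher and 21.4% lower). Many of the genes were dim: 40 of 78 genes lay at or under the median brightness of all genes, and limma called 0 of these (3 higher and 3 lower at an unadjusted p under 0.05), where it called 6.41% of all genes in that range. Of the 38 brighter ones 7 were called (18.4%), and of all brighter genes 21.2%.

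Among the acetyltransferases, KAT6A had the lowest log2 fold change of all 78 genes. KAT6A, also known as MOZ, is the catalytic subunit of a complex that acetylates histone H3. In the pull-down, arrays 1, 2 and 3 read 10.28, 10.44 and 10.33, against 12.07 and 11.60 for arrays 1 and 2 of the lysate (here and below in that order). The 3 pull-down values lay close together and all below both lysate values. This is a 2.79-fold difference (log2 -1.48, SE 0.17, limma adjusted p = 0.0106). The other 5 genes of the class, 0 of them called (0 at an unadjusted p under 0.05), lay between -0.11 and 0.28. They include KAT5, the catalytic subunit of the TIP60 complex, at 0.04 (adjusted p = 0.835) and KAT2A, the SAGA acetyltransferase, at 0.28 (adjusted p = 0.551). KAT2A measured 10.22 on pull-down array 1, against 9.38 and 9.31 on the other two, and 9.28 and 9.42 on the lysate arrays. Of the proteins known to join KAT6A in its complex, BRPF1 measured -0.32 (limma adjusted p = 0.279) and MEAF6 0.28 (limma adjusted p = 0.22).

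BRD7 and BRD7P3 were lower by all 3 of their probes. BRD7 is the bromodomain subunit of the PBAF form of SWI/SNF. Its brighter probe measured 10.74, 11.04 and 10.90 in the pull-down, and 12.17 and 12.13 in the lysate. The difference was 2.39-fold (log2 fold change -1.26, SE 0.13, limma adjusted p = 0.00948), and the second probe gave -1.71 (SE 0.16, limma adjusted p = 0.0087). BRD7P3 measured 8.74, 8.63 and 8.60, against 10.10 and 9.94 (log2 fold change -1.36, SE 0.12, limma adjusted p = 0.00796). A pseudogene can be near-identical to its source gene, so this probe may read BRD7 mRNA, and the 3 probes are not separate observations. The other BRD genes were not called (0 at an unadjusted p under 0.05). BRD9, the bromodomain subunit of another SWI/SNF form, measured 11.75, 10.86 and 10.77, against 11.82 and 11.64 in the lysate (log2 fold change -0.60, adjusted p = 0.251). Here pull-down array 1 lay with the lysate arrays and the other two below them, and without array 1 the value was -0.91 (limma adjusted p = 0.02). BRD2, which binds acetylated histones at active genes, measured 0.15 (adjusted p = 0.778), with pull-down values from 11.08 to 12.14 on either side of the lysate values of 11.49 and 11.42. BRD3 measured -0.35 (adjusted p = 0.51).

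**Figure D2:**
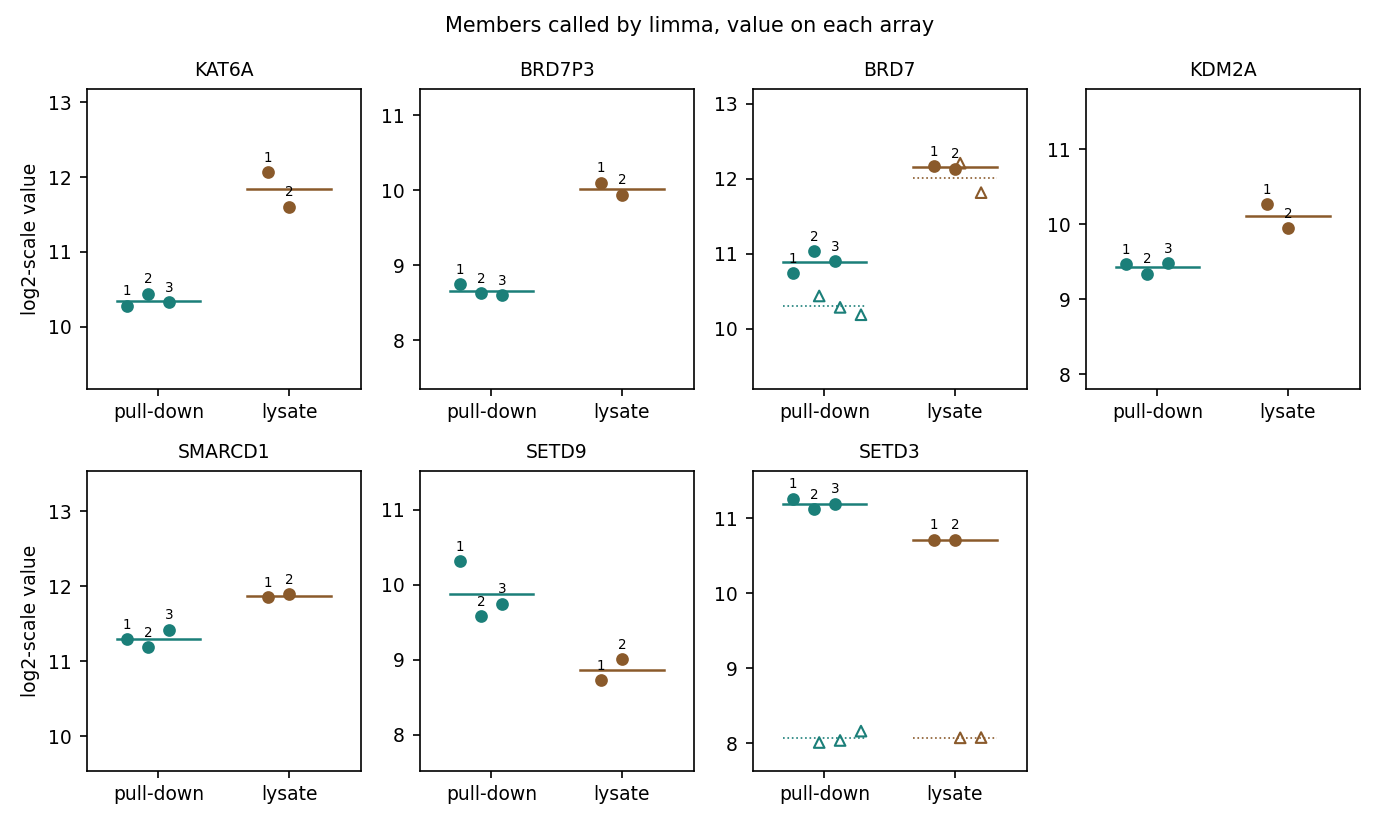
Value on each array (y axis, log2 scale, each panel with its own range) for the 7 genes called by limma, with pull-down arrays left and lysate arrays right, replicate numbers beside the points and lines at the group means; filled circles are the brightest probe and open triangles the second probe of BRD7 and SETD3. The groups are apart for the brightest probe of each gene, and the dim second probe of SETD3 at about 8 shows no such gap.

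In the SWI/SNF complex, the 8 analysed subunits named SMARC all had log2 fold changes below 0, as did 45.3% of all named genes. They ran from -1.13 to -0.08 with a median of -0.34, and 1 was called, where 6.72% of all named genes were called lower. The 8 genes were read on the same 5 arrays and are not independent replicates. SMARCD1, a subunit that links the complex to transcription factors, measured 11.29, 11.19 and 11.42 in the pull-down, and 11.85 and 11.89 in the lysate. SMARCD1 was lower in the pull-down than in the lysate by 1.49-fold (log2 -0.57, SE 0.12, limma adjusted p = 0.0332). Its paralog SMARCD3 measured 8.22, 8.14 and 8.39, against 8.72 and 8.73 (log2 fold change -0.47, adjusted p = 0.0549). Both paralogs were lower with groups that did not overlap, as were 21.4% of all named genes. The ATPase genes lay near 0, SMARCA4 (BRG1) at -0.14 (SE 0.21, adjusted p = 0.699) and SMARCA2 (BRM) at -0.19 (SE 0.24, adjusted p = 0.63), and so did the scaffold gene SMARCC1 at -0.08 (adjusted p = 0.782). The signs of these 3 turned when single arrays were left out: SMARCA4 then ranged from -0.29 to 0.02, SMARCA2 from -0.55 to 0.17 and SMARCC1 from -0.16 to 0.06.

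SMARCB1 and SMARCC2 had larger differences, and in both pull-down array 1 stood apart from the other two. SMARCB1 (SNF5), a core subunit that is lost in rhabdoid tumours, measured 9.43, 11.05 and 10.80 in the pull-down, and 11.86 and 11.26 in the lysate (log2 fold change -1.13, SE 0.51, adjusted p = 0.193). Its pull-down SD of 0.874 was the widest of the 78 genes, whose median was 0.149. The second probe had the same shape, at 8.58, 9.88 and 9.50 against 11.11 and 10.30 (log2 fold change -1.39, SE 0.43, adjusted p = 0.0868). SMARCC2, a scaffold subunit, measured 8.89, 9.77 and 9.72, against 10.26 and 10.22 (log2 fold change -0.78, SE 0.28, adjusted p = 0.125). In both genes pull-down array 1 was the lowest of the 5 arrays, and the other 2 pull-down arrays still lay below the lysate. Without pull-down replicate 1, SMARCB1 stood at -0.63 and was not called, whereas SMARCC2 stood at -0.50 and was called (limma adjusted p = 0.0392). SMARCE1 measured -0.20 (adjusted p = 0.607), and ranged from -0.44 to 0.047 with 1 array left out.

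**Figure D3:**
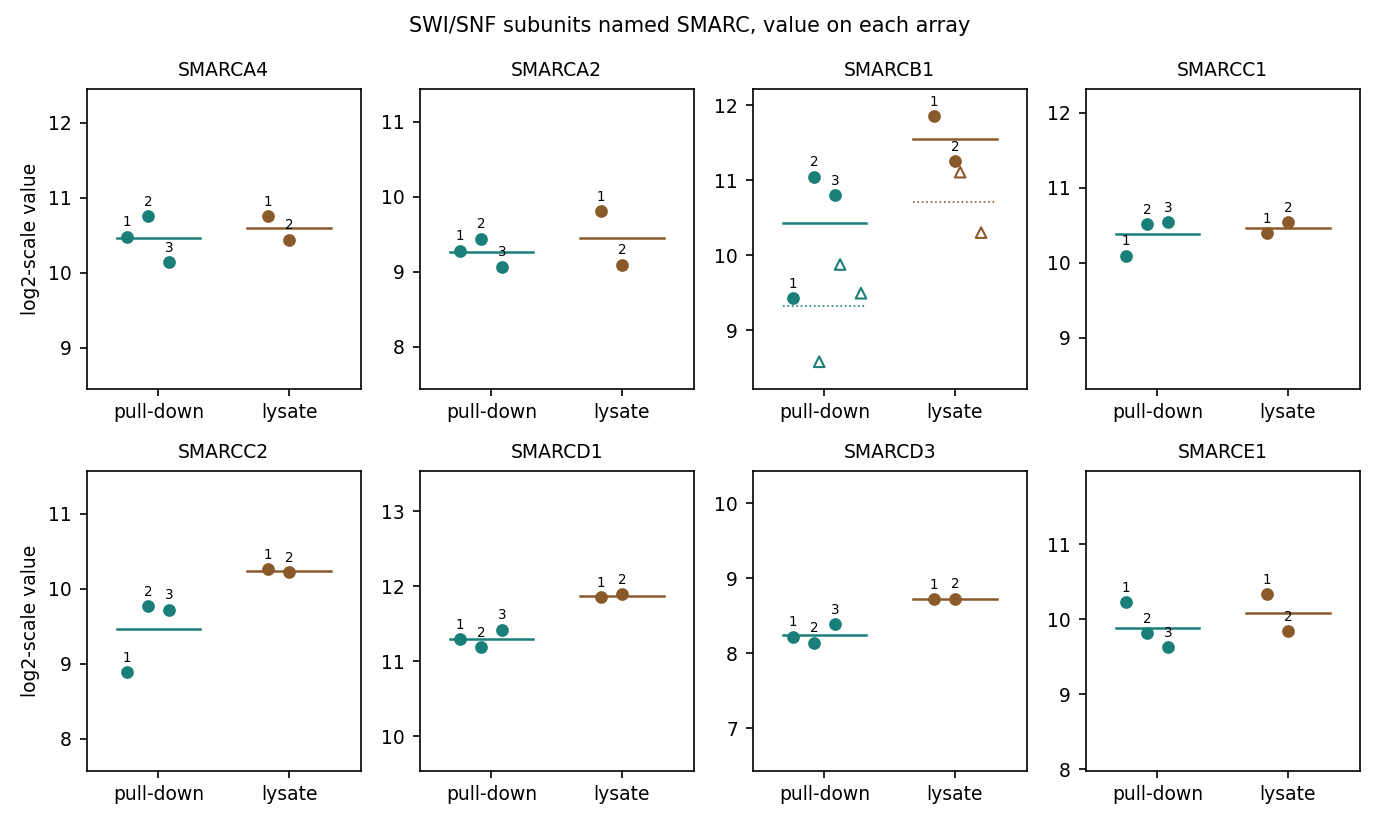
Value on each array (y axis, log2 scale, each panel with its own range) for the 8 SWI/SNF subunits named SMARC, pull-down left and lysate right, with replicate numbers and group means; open triangles are the second probe of SMARCB1. Pull-down array 1 is lowest for SMARCB1 and SMARCC2, and SMARCD1 and SMARCD3 have tight groups apart by 0.57 and 0.47.

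The other remodellers gave 0 calls (1 higher and 3 lower at an unadjusted p under 0.05). SMARCA5, the ATPase of the ISWI complexes, measured 9.93, 10.10 and 9.76 in the pull-down, and 10.76 and 10.32 in the lysate. Its 2 probes gave -0.61 (SE 0.18, adjusted p = 0.0758) and -0.58 (SE 0.18, adjusted p = 0.0896), without overlap between the groups. SMARCAL1, an annealing helicase that works at stalled replication forks, had the highest value of the SMARC class at 0.48 (adjusted p = 0.127). Of the 6 ARID genes, ARID1A, the large DNA-binding subunit of SWI/SNF, measured 0.18 (SE 0.18, adjusted p = 0.542), ARID2 of the PBAF form 0.04 (adjusted p = 0.807) and ARID3A -0.25 (adjusted p = 0.364). Of the 8 CHD genes 7 had a value below 0, beside 45.3% of all named genes, and the class median was -0.12. CHD4, the ATPase of the NuRD complex, measured 9.57, 9.54 and 9.54, against 9.45 and 9.72. Its log2 fold change was -0.03 (95% interval -0.34 to 0.28) by this probe and -0.12 by the other. CHD9 was lowest at -0.39 (SE 0.13, adjusted p = 0.0965), CHD3 measured -0.12 (adjusted p = 0.503), and the 2 probes of CHD6 gave 0.10 and -0.07.

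Among the methyltransferases, 4 of the 5 KMT genes were below 0 with groups that did not overlap by the brightest probe. Over all named genes, 21.4% were lower without overlap. The KMT class median was -0.38, and limma called 0 (0 higher and 3 lower at an unadjusted p under 0.05). KMT2A (MLL1), which methylates histone H3 at gene starts, measured 7.91, 8.18 and 8.19 in the pull-down, and 8.64 and 8.61 in the lysate (log2 fold change -0.53, SE 0.13, adjusted p = 0.0505). It lay just outside the threshold and passed it under 6 of 13 alternative settings. KMT5B, which methylates histone H4, measured -0.43 (adjusted p = 0.128) and -0.07 (adjusted p = 0.734) by its 2 probes, and KMT2E -0.38 (adjusted p = 0.126) and 0.05 (adjusted p = 0.789). For the second probe of both genes the groups overlapped. KMT5A, the enzyme that adds the first methyl group to the same site of histone H4, measured 0.10 (adjusted p = 0.774).

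Of the 9 SETD genes, 2 were called and both were higher, where 7.1% of all named genes were called higher. SETD9 measured 10.32, 9.58 and 9.75 in the pull-down, and 8.73 and 9.01 in the lysate, which is 2.02-fold higher (log2 1.01, SE 0.24, limma adjusted p = 0.046). The lowest pull-down value lay above the highest lysate value. SETD3, which methylates a histidine of actin rather than a histone, measured 11.26, 11.12 and 11.19, against 10.71 and 10.72 (log2 fold change 0.48, SE 0.11, limma adjusted p = 0.0399). Its second, dimmer probe gave -0.0045 (limma adjusted p = 0.982), so the call holds for 1 of 2 probes. SETD3 was called under 4 of 13 alternative settings, fewer than the 6 in which KMT2A passed. SETD2, which methylates histone H3 along transcribed genes, was lowest at -0.53 (SE 0.18, adjusted p = 0.102). SETDB1, which places a silencing mark on histone H3, measured -0.27 (SE 0.13, adjusted p = 0.218). The class median was 0.05.

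Among the demethylases, KDM2A was lower and the other 8 were not called (1 higher and 0 lower at an unadjusted p under 0.05). KDM2A, which binds unmethylated CpG islands and demethylates histone H3 there, measured 9.47, 9.34 and 9.48 in the pull-down, and 10.27 and 9.95 in the lysate. KDM2A was lower in the pull-down than in the lysate by 1.60-fold (log2 -0.68, SE 0.14, limma adjusted p = 0.031), without overlap. Its paralog KDM2B measured 10.45, 10.09 and 10.10, against 10.09 and 10.03 (log2 fold change 0.15, adjusted p = 0.535). The class median was 0.12, with 6 of 9 genes above 0, beside 5069 of the 9268 named genes. KDM1A (LSD1), the flavin-dependent demethylase of corepressor complexes, measured -0.21 (95% interval -0.59 to 0.16). The demethylase gene KDM6A (UTX) measured 0.23 (adjusted p = 0.305), and KDM3A was highest at 0.31 (adjusted p = 0.451).

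Of the 12 deacetylase genes, limma called 0 (1 higher and 1 lower at an unadjusted p under 0.05). HDAC3, the enzyme of the NCOR corepressor complex, had the lowest value. It measured 11.14, 11.26 and 11.63 in the pull-down, and 11.92 and 12.03 in the lysate (log2 fold change -0.63, SE 0.17, adjusted p = 0.0636). HDAC1 and HDAC2, the paired enzymes of the NuRD and SIN3 complexes, stood at -0.07 (95% interval -0.80 to 0.66) and 0.27 (95% interval -0.10 to 0.63). HDAC1 measured 12.08, 11.54 and 11.23, against 11.98 and 11.40, so that both lysate values lay inside the pull-down range. Of the sirtuins, SIRT5, a mitochondrial enzyme that removes succinyl groups, measured 8.27, 8.19 and 8.30, against 7.91 and 7.81 (log2 fold change 0.39, SE 0.11, adjusted p = 0.0694). SIRT1 measured -0.10 (95% interval -0.40 to 0.19) and SIRT7 -0.14 (adjusted p = 0.462). The class medians of HDAC and SIRT genes were both -0.03, and both turned sign with 1 array left out, as did those of ARID and KAT genes.

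The 4 ING genes gave 0 calls (0 at an unadjusted p under 0.05). Their PHD fingers bind methylated histone H3 and bring acetyltransferase or deacetylase complexes to it. ING3, of the TIP60 complex, was highest at 0.29 (adjusted p = 0.167), with 0.31 and 0.04 by its other probes. ING1, of the SIN3 complex, was lowest at -0.30 (adjusted p = 0.297), and the 2 probes of ING2 gave -0.13 and 0.03. Over all classes, 13 genes had more than 1 probe, and the probes differed in call for SETD3 alone and in sign for SETD3, CHD6, ING2 and KMT2E.

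The calls depended on which arrays entered the fit. With lysate replicate 1 left out, 0 of the 78 genes were called by limma (4 higher and 9 lower at an unadjusted p under 0.05), and so were 0 of all 14747 probes (2958 had an unadjusted p under 0.05). KAT6A was the only gene called without lysate replicate 2, and KAT6A, BRD7 and BRD7P3 were the genes called without pull-down replicate 2 or 3. Without pull-down replicate 1, 2 were higher and 8 lower, with BRD9, KMT2A and SMARCC2 joining the 5. Over all 13 alternative settings, KAT6A was called in 11, BRD7 and BRD7P3 in 10 each, KDM2A and SETD9 in 8 each. SMARCD1 was called in 7 and SETD3 in 4. The called genes kept the sign of their log2 fold change: with any 1 array left out KAT6A stayed between -1.71 and -1.25, BRD7 between -1.33 and -1.18, KDM2A between -0.84 and -0.52, SMARCD1 between -0.63 and -0.52, SETD9 between 0.80 and 1.17 and SETD3 between 0.44 and 0.51. For 64 of the 71 genes not called, the 95% interval of the log2 fold change lay within -1 and 1. The 71 include the 40 genes at or under the median brightness. Detection was not examined, so a narrow interval for a dim gene cannot show that its RNA did not differ. The 7 whose interval reached a 2-fold change were BRD3, BRD9, HDAC3, KAT2A, SMARCA5, SMARCB1 and SMARCC2.

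**Figure D4:**
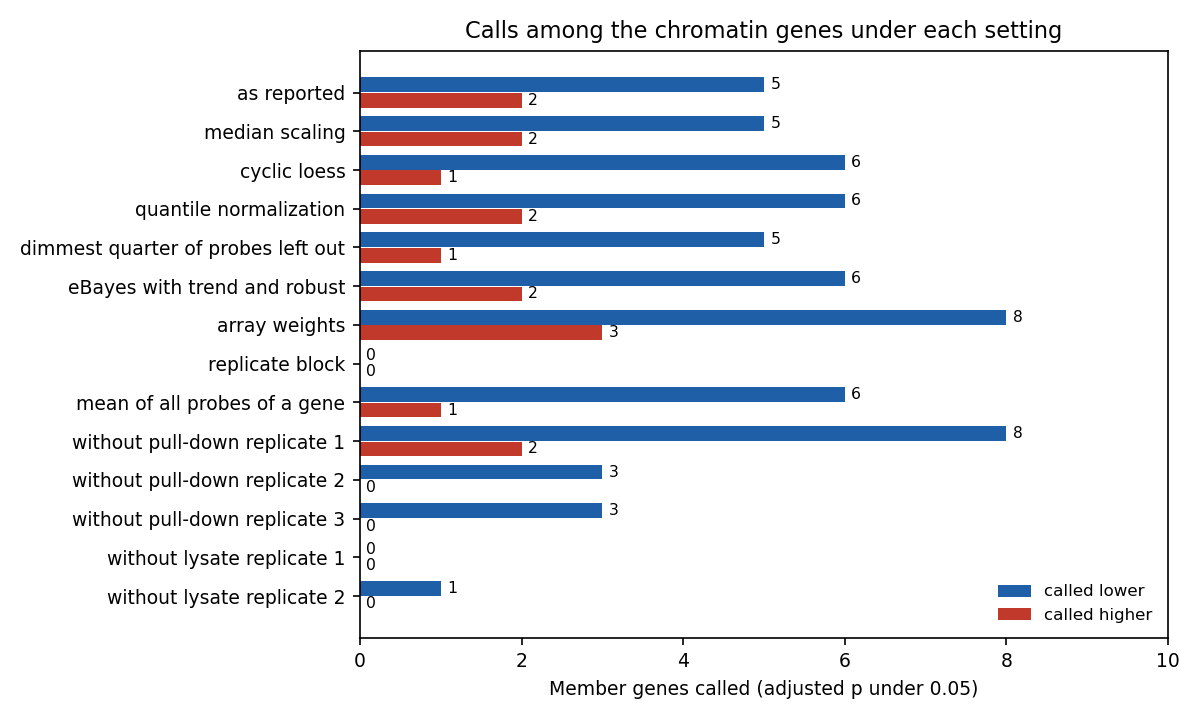
Number of the 78 genes called by limma at an adjusted p under 0.05 (x axis) in the reported fit and 13 alternative settings (y axis), lower in blue and higher in red. The count is largest, 8 lower with 2 or 3 higher, without pull-down replicate 1 and with array weights. It is 0 with replicate number as a block, although the numbers were not taken to pair the samples. That block leaves 1 residual degree of freedom and called 1.38% of all named genes.

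Partners of these proteins were followed through lists by complex, in which RBBP4 and RBBP7 stand in 2 lists. Of 155 genes outside the 78, each counted once, 5 were higher (3.23%) and 15 lower (9.68%). Over all named genes 7.1% were higher and 6.72% lower. In both directions together the shares are 12.9% and 13.8%. Histone chaperones held 4 of the lower genes and 1 higher of 19, with a list median of -0.37. HJURP, which loads the centromeric histone, was lower by 2.89-fold (log2 -1.53, limma adjusted p = 0.0122), and ASF1A, a chaperone of histones H3 and H4, was higher (0.47, limma adjusted p = 0.0375). The ISWI partners RSF1 (-0.75, limma adjusted p = 0.0298) and BPTF (-0.69, limma adjusted p = 0.0201) were lower, 2 of 6, beside their ATPase SMARCA5 at -0.61, which did not pass. In the SWI/SNF list the accessory subunit DPF2 was lower (-0.74, limma adjusted p = 0.0375) and ACTL6A, an actin-related subunit, higher (0.50, limma adjusted p = 0.0438), 1 and 1 of 10. The core partners of the KMT2 enzymes also divided, with WDR5 lower (-0.81, limma adjusted p = 0.0156), DPY30 higher (0.87, limma adjusted p = 0.0168) and 9 of 11 not called.

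In the remaining lists, Polycomb repressive complex 2 had 1 higher gene of 10, SUZ12 (0.79, limma adjusted p = 0.0171), and a median of 0.27, and SUZ12 has a near-identical partial copy that its probe may read. INO80 and SRCAP subunits had 1 higher and 2 lower of 18. YEATS4 was higher (0.94, limma adjusted p = 0.0161), and RUVBL2 (-0.70, limma adjusted p = 0.0198) and TFPT (-0.69, limma adjusted p = 0.028) were lower. Other acetyltransferases and their partners had 2 lower of 27, HAT1 (-0.79, limma adjusted p = 0.0348) and MSL1 (-0.66, limma adjusted p = 0.0268). Other methyltransferases had 2 lower of 17, PRMT1 (-0.94, limma adjusted p = 0.0367) and SMYD4 (-0.63, limma adjusted p = 0.0306). The list of DNA methylation genes had 1 lower of 8, MBD4, a glycosylase that repairs mismatches at methylated sites (-1.95, limma adjusted p = 0.0151). Limma called 0 of 9 NuRD subunits (1 higher and 2 lower at an unadjusted p under 0.05), 0 of 18 corepressor partners of HDACs, ARID4B of the 78 among them (0 at an unadjusted p under 0.05) and 0 of 5 other demethylases (1 higher and 0 lower). Without lysate replicate 1 limma called 0 of the 155 genes.

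Gene length was a feature that the names did not use. The median genomic span in RefSeq was 50469 bases for the 78 genes and 28501 bases for all named genes with a span. Across genes, the rank correlation of span with the log2 fold change was -0.15 over 9262 named genes and -0.03 over the 78. Genes are not independent replicates, and all values come from the same 5 arrays, so this is a description.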

How the data were processed

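RNA of 5 samples was hybridised to Illumina HT-12 arrays, 3 of the pull-down and 2 of the lysate. The authors normalized the arrays with lumi and deposited 1 value per probe on a log2 or log2-like variance-stabilized scale. The sources used here do not say which, so a 2-fold change means a difference of 1 on that scale. No further normalization was applied. A further table holds 10 per-sample columns (5 of them signals) whose names match no sample label, and it was not used, so background and detection were not examined. The number of arrays limits the precision, with a median SE of 0.152.

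Of 14747 probes, 11970 had 1 gene symbol in GEO's platform annotation, 1 several and 2776 none. RefSeq identifiers were found for 11963, and 0 symbols needed updating. Each gene was taken by its brightest probe over all arrays. All probes were fitted with limma 3.58.1 in R 4.3.3 (lmFit and eBayes, 3 residual and 2.75 prior degrees of freedom), with Benjamini-Hochberg adjustment over all probes and a threshold of 0.05. Intervals are 95% intervals from the same fit. The fit was tested on simulated data. The alternatives were other scalings, leaving out the dimmest 25% of probes, trend with robust, array weights, the replicate number as a block, the mean of a gene's probes and leaving out each array.

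Members and lists were chosen with earlier results of these data known. Named by rule were called genes with at least a 2-fold change, the highest and lowest gene of each class, genes whose probes disagreed, a fixed set of catalytic and core genes, and the highest and lowest called gene of each list. SMARCD1, SMARCD3, SMARCC2, SMARCE1, SMARCA5, BRD3, BRD9, KDM2B, KMT5B, SIRT7, TFPT, BRPF1 and MEAF6 fall outside it and were chosen after their values were seen. Sequence and gene spans are from RefSeq (GRCh38.p14).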

Additional observations from a re-analysis of the deposited data

How the results depend on the processing

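Of 206 values of 16 results (counts and medians) under the alternatives, 164 stayed close to the reported value and 42 did not. A median near 0 could stay close and still change sign, as those of KAT and SIRT genes did. The medians of ARID and HDAC genes also changed sign under an alternative. The genes called higher numbered 1 of 78 with cyclic loess, 1 without the dimmest probes and 1 with the mean of a gene's probes (2 as reported), and array weights gave 8 lower (5 as reported). Array weights called 3128 probes and trend with robust 2632, against 2172. Under trend with robust SMARCD3 was called and SMARCD1 was not. The KMT median was -0.41 with cyclic loess, -0.33 with array weights and -0.25 with the mean of probes. Without the dimmest probes, which left 53 of the 78 genes, the ARID median was -0.20 and the SETD median 0.26. The cause of these shifts was not tested.

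With 1 array left out, the genes called ranged from 0 to 2 higher and from 0 to 8 lower, and the probes called from 0 to 1244 higher and from 0 to 1145 lower. The median of the 78 genes ranged from -0.13 to -0.011, and the class medians from -0.46 to -0.13 for SMARC, -0.45 to -0.27 for KMT, 0.020 to 0.23 for SETD, 0.066 to 0.13 for KDM, -0.11 to 0.061 for HDAC, -0.67 to -0.23 for BRD, -0.13 to 0.017 for ARID, -0.20 to -0.12 for CHD, -0.048 to 0.11 for KAT, -0.099 to 0.042 for SIRT and -0.19 to -0.094 for ING. Of the 155 partner genes, 0 to 5 were higher and 0 to 18 lower.

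Replicate numbers 1 and 2 occur in both groups, but the labels tie them to no shared culture. Deviations from the group means correlated at 0.04 for number 1 and -0.43 for number 2. With 2 lysate arrays these deviations mirror each other, so pull-down replicate 2 correlated at 0.43 with lysate replicate 1. Such mirrored correlations cannot show which captures and lysates were paired. Because the labels give no pairing, the numbers were not taken to pair the samples. The study took its control from the lysate used for capture, so captures and lysates may be paired in another order. The reported fit uses no pairing. With the number as a block, which leaves 1 residual degree of freedom, limma called 53 probes higher and 162 lower, 0 of the 78 genes higher and 0 lower (2 higher and 10 lower at an unadjusted p under 0.05), and the SETD median was 0.15. Background correction of the raw signals was not run, because their columns match no label.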
